A study of Mus musculus with 8 samples.

Results

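The proteasome genes examined here are the protein-coding mouse genes of RefSeq GRCm38 whose symbols begin with Psma, Psmb, Psmc, Psmd, Psme, Psmf or Psmg and a digit. This rule took 51 of 21631 protein-coding genes on the autosomes and chromosome X. Binding was mapped by chromatin immunoprecipitation with sequencing (ChIP-seq), with antibodies against Mta2, Mbd3 or Zbtb7a and with Input chromatin, in 4 groups of 2 biological replicates. The sample titles repeat the same 2 identifiers in each group, so the groups may come from the same mice, which the labels do not state. Mbd3 and Mta2 belong to NuRD, a complex that remodels nucleosomes and removes histone acetyl groups, and Zbtb7a is a DNA-binding protein with zinc fingers. Every group was kidney cortex of mice aged 2 months with the genotype Mta2flx/flx, meaning that loxP sites flank Mta2. The labels name no Cre driver, so Mta2 is described here as flanked and not as deleted. Cortex was crosslinked whole with disuccinimidyl glutarate and then formaldehyde, so each list mixes the cell types of this tissue. Peaks were found at each of 10 marker genes of tubule segments and podocytes for each factor, which describes binding and not expression. Most genes had peaks. Of all protein-coding genes, 77.7% had an Mta2 summit in the gene or within 1 kb, 76.5% an Mbd3 summit and 76.0% a Zbtb7a summit. The values are 1 merged peak list per factor, with 149855 Mta2 peaks, 134248 Mbd3 peaks and 124616 Zbtb7a peaks. Because the mice of a group are merged, no value below has an SD, and no difference was tested. Depth per library was not analysed here, and no peak at a gene means that its signal did not pass the authors' threshold, which does not show that the gene was unbound.

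The proteasome is the large protease that degrades proteins tagged with ubiquitin. Its 20S core is a barrel of alpha and beta rings, with the active sites on beta subunits inside, and the 19S cap has a base of ATPases that unfolds substrates and a lid that removes ubiquitin. Under interferon, cells exchange the catalytic beta subunits for Psmb8, Psmb9 and Psmb10 and form the immunoproteasome, which favours peptides for class I antigen presentation. The activator PA28, made of Psme1 and Psme2, opens the core. In the kidney, as in other tissues, most of these genes are expressed in nearly all cells, while Psmb11 is known from thymus and Psma8 from testis. Human ZBTB7A is known as a repressor of fetal globin genes that can act with NuRD.

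By role, the 51 genes comprised 14 constitutive 20S core subunits, 3 immunoproteasome beta subunits and 2 core subunits restricted to thymus or testis. The 19S cap gave 9 base and 8 lid subunits. There were also 5 activator genes, 1 inhibitor, 7 assembly factors and 2 genes, Psmc3ip and Psme3ip1, that match the rule by name and encode no subunit. Psmc3ip acts in meiotic recombination, and Psme3ip1 encodes a protein that binds Psme3.

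The sequences below are the 250 bases upstream of the start site, given 5′ to 3′ on the gene's strand from RefSeq GRCm38.p6, and they show what lay under a few peaks that the results turn on. Capitals mark, on either strand, the letters CCGGAAG (the core of ETS factor sites), TGANNNNGC (the core of antioxidant response elements, through which Nfe2l1 and Nfe2l2 act) and GAAANNGAA (an interferon response core). A match describes letters in the window and is not a measured site. Psmd12 and Psmc6 are a lid and a base gene among the strongest peaks, Psmb5 a catalytic core gene with a weak peak, Psme1 and Psmb9 interferon-responsive genes, and Psmb11 a gene with no peak. They are taken from chr11:107479278-107479527 on the plus strand (Psmd12), chr14:45329574-45329823 on the plus strand (Psmc6), chr14:54617996-54618245 on the minus strand (Psmb5), chr14:55578244-55578493 on the plus strand (Psme1), chr17:34187331-34187580 on the minus strand (Psmb9) and chr14:54625060-54625309 on the plus strand (Psmb11).
Psmd12: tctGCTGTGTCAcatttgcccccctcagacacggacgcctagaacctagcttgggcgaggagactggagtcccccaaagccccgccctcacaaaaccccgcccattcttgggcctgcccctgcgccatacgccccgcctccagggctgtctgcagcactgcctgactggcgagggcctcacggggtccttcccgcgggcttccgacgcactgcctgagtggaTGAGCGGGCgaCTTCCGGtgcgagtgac
Psmc6: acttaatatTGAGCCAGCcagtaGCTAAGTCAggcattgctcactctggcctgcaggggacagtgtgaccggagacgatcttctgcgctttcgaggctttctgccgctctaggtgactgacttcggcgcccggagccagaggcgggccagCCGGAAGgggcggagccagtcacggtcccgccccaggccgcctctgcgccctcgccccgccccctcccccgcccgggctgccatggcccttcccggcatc
Psmb5: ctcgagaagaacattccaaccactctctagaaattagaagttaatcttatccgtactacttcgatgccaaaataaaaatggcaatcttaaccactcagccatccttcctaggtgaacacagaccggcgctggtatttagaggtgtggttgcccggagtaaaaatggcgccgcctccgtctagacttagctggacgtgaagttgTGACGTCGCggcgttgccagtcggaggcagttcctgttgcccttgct
Psme1: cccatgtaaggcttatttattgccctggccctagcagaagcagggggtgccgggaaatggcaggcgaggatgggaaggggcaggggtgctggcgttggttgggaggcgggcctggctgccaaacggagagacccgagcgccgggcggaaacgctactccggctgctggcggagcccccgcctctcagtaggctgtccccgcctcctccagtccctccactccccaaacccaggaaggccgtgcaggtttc
Psmb9: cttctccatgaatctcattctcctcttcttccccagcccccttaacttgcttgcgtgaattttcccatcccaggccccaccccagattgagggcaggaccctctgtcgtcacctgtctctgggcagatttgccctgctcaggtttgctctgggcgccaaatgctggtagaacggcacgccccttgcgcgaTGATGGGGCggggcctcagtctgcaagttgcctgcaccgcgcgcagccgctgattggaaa
Psmb11: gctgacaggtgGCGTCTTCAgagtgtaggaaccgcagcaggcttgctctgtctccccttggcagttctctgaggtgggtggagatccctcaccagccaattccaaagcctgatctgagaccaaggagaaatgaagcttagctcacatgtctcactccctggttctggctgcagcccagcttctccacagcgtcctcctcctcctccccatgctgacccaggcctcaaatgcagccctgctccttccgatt

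Psmd12 held an ETS match 17 to 11 bp before its start, next to a match to the antioxidant letters 28 to 20 bp before it. Its Mta2, Mbd3 and Zbtb7a summits lay 80, 74 and 74 bp upstream of the start, between these matches and a further antioxidant match 247 to 239 bp upstream. Psmc6 held its ETS match 100 to 94 bp upstream, within 50 bp of each summit. Psmb5 had 1 printed match, to the antioxidant letters, and a further one just past the start. Psme1 had no match in the printed bases, and its interferon letters stood 10 to 18 bp past the start.

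Nearly all proteasome genes carried all 3 factors. A summit lay in the gene or within 1 kb of its ends in 48 of 51 genes (94.1%) in the Mta2 list, 49 (96.1%) in the Mbd3 list and 48 (94.1%) in the Zbtb7a list, and 48 genes had all 3. Among all protein-coding genes, this rule called 77.7% by Mta2, 76.5% by Mbd3, 76.0% by Zbtb7a and 74.7% by all 3. RefSeq promoter entries, which give strand and start site, matched 43 of the 51 genes. Around these starts, 40 of 43 genes (93.0%) had a summit within 1 kb for each factor and for all 3 together. The same window called 67.8% of all 17274 genes with a start entry by Mta2, 66.5% by Mbd3, 66.5% by Zbtb7a and 64.0% by all 3.

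Promoter composition moved with this difference. The 300 bases around the start held a median of 19 CpG in the 43 proteasome genes and 15 in the 17231 other genes. Within the interquartile range of the proteasome genes (13.5 to 23.5 CpG), 21 of 21 proteasome genes had a summit within 1 kb of the start for each factor, and of 3917 other genes 92.6% were occupied by Mta2, 91.2% by Mbd3 and 91.7% by Zbtb7a. Below that range, 8 of 11 proteasome genes (72.7%) were occupied by each factor, and of 8174 other genes 37.2% by Mta2, 35.7% by Mbd3 and 35.6% by Zbtb7a. Above it, all 11 proteasome genes were occupied, and of 5140 other genes 97.2% were occupied by Mta2, 96.5% by Mbd3 and 96.2% by Zbtb7a. The part of CpG content in the difference was not tested. Proteasome genes were shorter, with a median length of 11567 bp against 17344 bp in other genes.

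**Figure D1:**
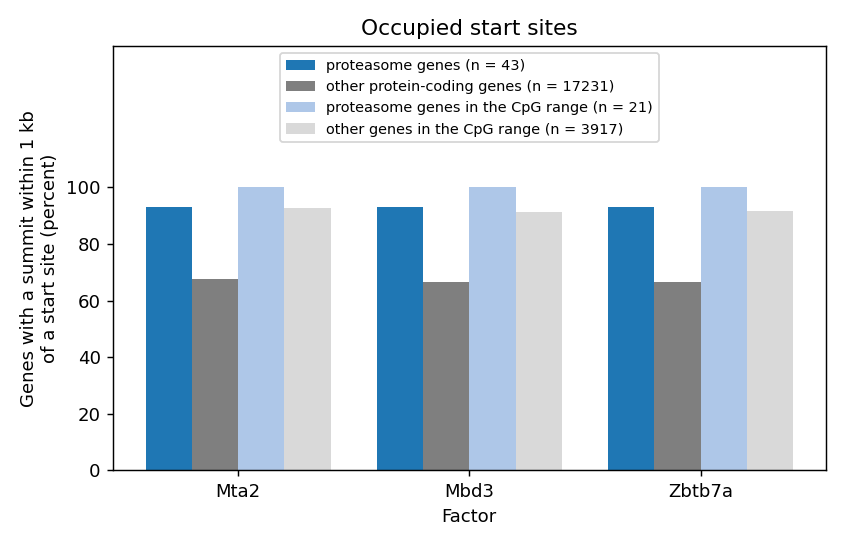
Percentage of genes with a peak summit within 1 kb of a RefSeq start site, by factor, for 43 proteasome genes, 17231 other protein-coding genes, and the 21 proteasome and 3917 other genes with 13.5 to 23.5 CpG in the promoter. The proteasome bars stand at 93.0% for each factor and the other genes at 67.7%, 66.5% and 66.4%, while in the CpG range the bars are at 100% for proteasome genes and 92.6%, 91.2% and 91.7% for other genes.

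The genes without a full set of factors were those known from other tissues and a gene copy. Psmb11, the thymus beta subunit, and Psme2b, a copy of Psme2, had no peak of any factor. Psma8, the testis alpha subunit, had 1 Mbd3 peak of fold 2.62 and −log10 q 3.90, whose summit lay 39 bp inside the gene's lower-coordinate end, and no Mta2 or Zbtb7a peak. Here fold is the authors' ratio of signal over background at the summit, and −log10 q is the peak's deposited significance. The Psma8 peak stood at the 1.0 percentile of the highest fold per gene among occupied genes. The promoters of Psmb11 and Psme2b held 4 and 2 CpG. The third start window without a summit belonged to Psmb10, with 3 CpG, which is described with the immunoproteasome. Reads from near-identical copies can be placed at either copy or discarded, and the part of this in the result at Psme2b was not tested. Of 6 pseudogenes with such symbols, 1 (Psmb7-ps1) had summits, with folds of 5.21 for Mta2, 3.32 for Mbd3 and 2.89 for Zbtb7a.

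The strength of the peaks was ordinary. The strongest peak per gene had a median fold of 16.5 for Mta2 over the 48 occupied proteasome genes and 16.8 over other occupied genes. For Mbd3 the medians were 15.8 in proteasome genes and 15.4 in other genes, and for Zbtb7a 14.1 and 16.2. Folds of different lists are not on one scale, so each gene is also given by its percentile among all occupied genes of a list. The proteasome genes had a median percentile of 48.7 in the Mta2 list, 51.9 in the Mbd3 list and 43.1 in the Zbtb7a list. At or above the 90th percentile stood 1 of them in the Mta2 list, 5 in the Mbd3 list and 1 in the Zbtb7a list, while the range between the 25th and 75th percentile held 34 of 48, 32 of 49 and 27 of 48. Only 17 of the 48 genes stood above the middle of the Zbtb7a list, against 24 of 48 for Mta2 and 25 of 49 for Mbd3. The Zbtb7a difference was smaller with peaks within 1 kb of a start alone. Median folds were then 14.1 in proteasome genes and 15.0 in other genes, with a median percentile of 46.7 in proteasome genes.

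**Figure D2:**
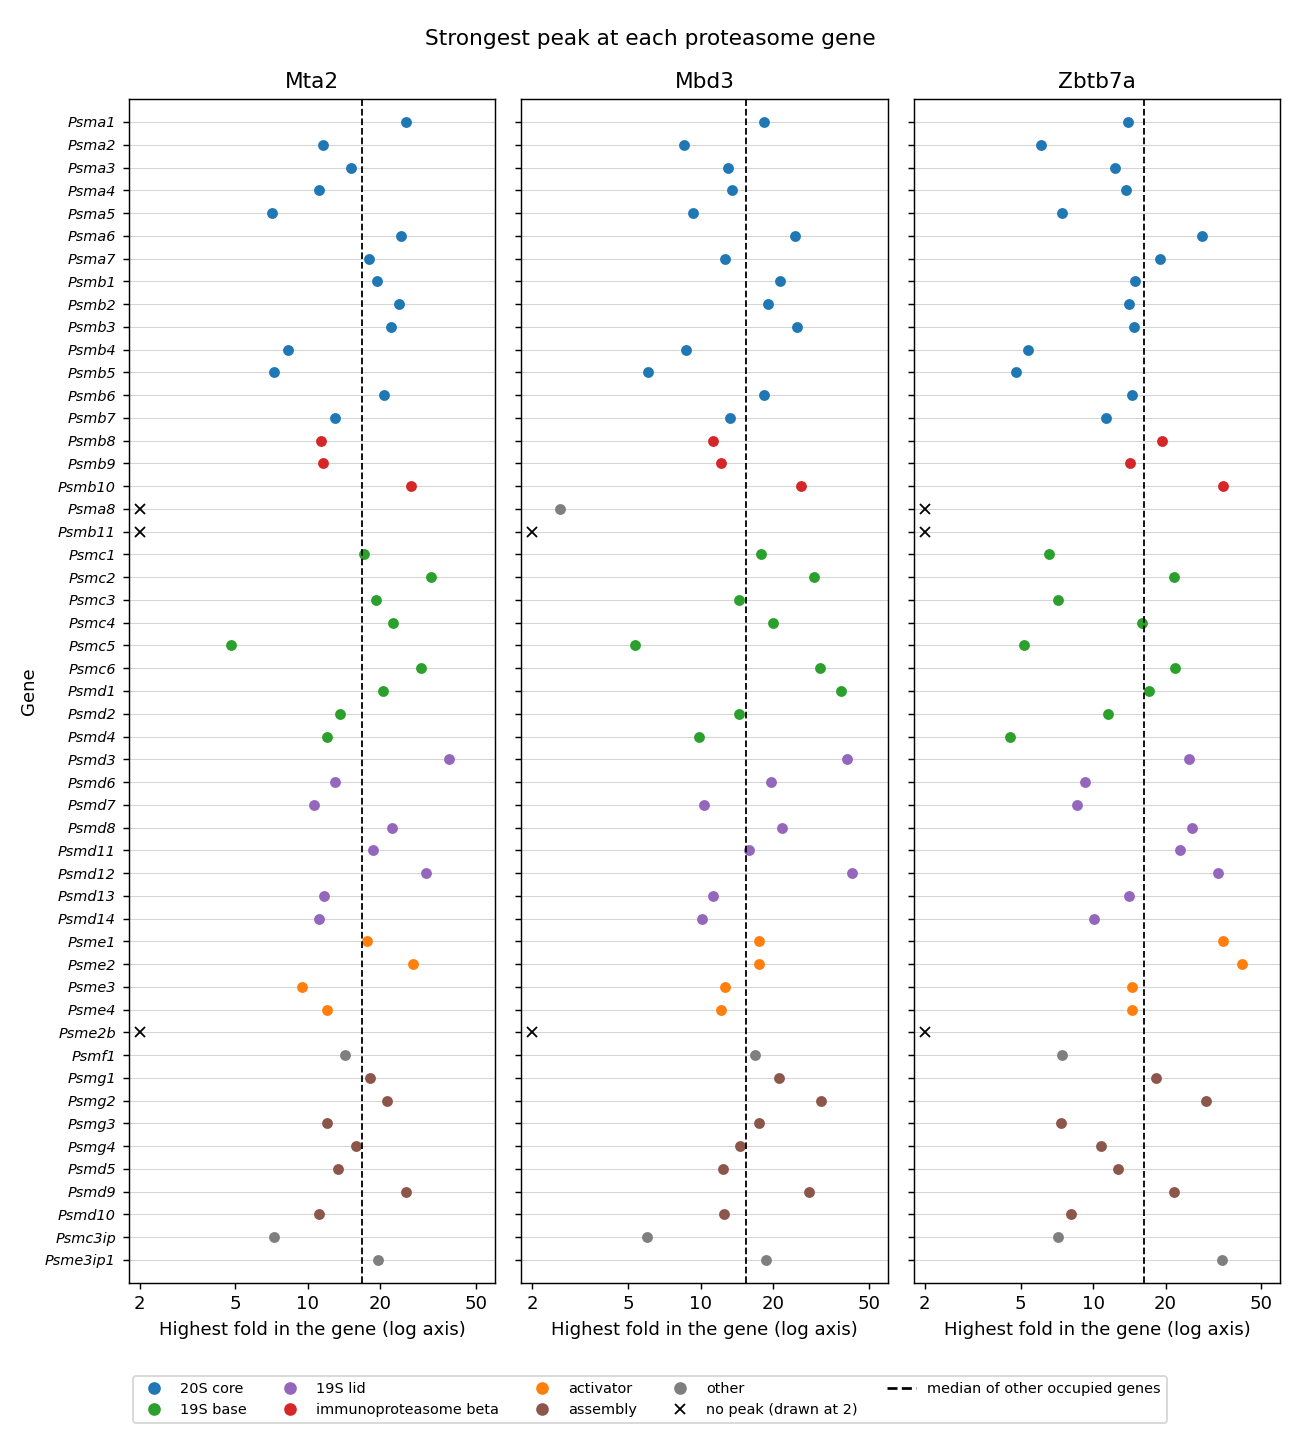
Highest fold (log axis) of any peak in each of the 51 genes, or within 1 kb of its ends, in the Mta2, Mbd3 and Zbtb7a lists, coloured by role. Crosses are genes without a peak, and the dashed line is the median of other occupied genes (16.8, 15.4 and 16.2). Values run from 4.81 to 38.6 for Mta2, from 2.62 to 42.4 for Mbd3 and from 4.51 to 41.4 for Zbtb7a, on both sides of the line in most roles.

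All 14 constitutive core genes carried all 3 factors. In the alpha ring, which gates entry to the barrel, Psma1 had the highest Mta2 fold at 25.7, with 18.4 for Mbd3 and 14.0 for Zbtb7a. Psma6 followed at 24.3, 24.7 and 28.4, and its strongest summits stood 94, 71 and 74 bp upstream of a start site that lies inside the gene span. Psma5 had the lowest Mta2 fold at 7.12, with 9.27 for Mbd3 and 7.44 for Zbtb7a. Psma2 was among the lowest in the other lists, at 11.5, 8.50 and 6.10. Genes of this ring thus ran from weak to strong peaks in each list.

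In the beta ring, which carries the active sites, Psmb2 had folds of 24.0 for Mta2, 19.1 for Mbd3 and 14.0 for Zbtb7a. Psmb3, a non-catalytic subunit, had 22.1, 25.1 and 14.8. The catalytic genes differed among themselves. Psmb5, the chymotrypsin-like subunit, had folds of 7.25, 6.03 and 4.81, near the bottom of each list. Psmb6, the caspase-like subunit, had 20.8, 18.3 and 14.5. Psmb7, the trypsin-like subunit, had 12.9, 13.3 and 11.3, and the strongest peak of each factor stood at a different place in this gene of 9 Mta2 summits. At its upper-coordinate end, Psmb7 had peaks of fold 12.3, 13.3 and 8.56. Psmb4, a non-catalytic subunit, was low in all lists at 8.27, 8.72 and 5.36. All 7 beta ring genes stood lower in the Zbtb7a list than in the Mta2 list, by a median of -13.6 percentile points (Zbtb7a minus Mta2). In the alpha ring 4 of 7 genes stood higher in the Zbtb7a list, with a median difference of 4.16 points. Of other protein-coding genes, 8815 of 16226 stood lower in the Zbtb7a list, with a median difference of -1.21 points.

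The base genes included some of the strongest Mta2 peaks and few strong Zbtb7a peaks. Psmc2, an ATPase, had folds of 32.3 for Mta2, 29.7 for Mbd3 and 21.6 for Zbtb7a, with summits 24, 63 and 77 bp upstream of its start. Psmc6, also an ATPase, had 29.5, 31.2 and 21.8 from the promoter printed above. Psmc5 had the lowest Mta2 fold of all occupied proteasome genes, at 4.81, with 5.33 and 5.14 in the other lists. Psmd1, a scaffold of the base, had 20.5 for Mta2 and 17.1 for Zbtb7a, and its Mbd3 fold of 38.2 was at the 95.4 percentile. Psmd2, the other scaffold, had 13.6, 14.5 and 11.5. Psmd4, a ubiquitin receptor, had 12.0 and 9.84 for Mta2 and Mbd3 and the lowest Zbtb7a fold of the family, 4.51. The base had median folds of 19.2, 17.9 and 11.5 in the Mta2, Mbd3 and Zbtb7a lists.

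In 8 of 9 base genes the Zbtb7a percentile was below the Mta2 percentile, with a median difference of -21.2 points. This held in 8815 of 16226 other protein-coding genes, with a median difference of -1.21 points. Psmc3 had the widest gap, at percentile 17.6 for Zbtb7a and 59.0 for Mta2. Psmc1 stood at 15.5 for Zbtb7a and 51.2 for Mta2. Psmc5, weak in every list, was the exception, at 10.9 for Zbtb7a and 7.58 for Mta2.

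The lid held the strongest Mta2 and Mbd3 peaks of the family. Psmd12 had folds of 30.8 for Mta2, 42.4 for Mbd3 and 33.1 for Zbtb7a, with each summit in the promoter printed above, and was the only gene among the 5 highest in every list. Psmd3 had the highest Mta2 fold, 38.6, with 40.4 for Mbd3 and 25.0 for Zbtb7a. These Psmd3 peaks lay inside the gene, with summits 4599, 4601 and 4643 bp from its lower-coordinate end. A separate set at that end had folds of 21.8 for Mta2, 19.6 for Mbd3 and 11.8 for Zbtb7a, and RefSeq promoter entries gave no start site for Psmd3. Psmd7 had the lowest Mta2 fold of the lid, 10.6, with 10.4 for Mbd3 and 8.59 for Zbtb7a. Psmd14, the deubiquitinase of the lid, was near it at 11.1, 10.2 and 10.1. The lid medians were 15.8, 17.7 and 18.5, and 4 of 8 lid genes stood higher in the Zbtb7a list than in the Mta2 list. The distance of lid and base in the Zbtb7a list depended on the role given to Psmd4. With Psmd4 counted in the lid, the Zbtb7a medians were 14.1 in the lid and 13.7 in the base. The Mta2 medians were then 12.9 in the lid and 19.8 in the base. With Psmd4 in the base and peaks of the start window alone, the Zbtb7a medians were 18.5 in the lid and 13.7 in the base.

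The 3 immunoproteasome genes had all 3 factors. Psmb8, which replaces Psmb5, had folds of 11.3 for Mta2, 11.3 for Mbd3 and 19.3 for Zbtb7a, with summits 136, 147 and 132 bp past its start. Psmb9, which replaces Psmb6, had 11.6, 12.2 and 14.2. Its start lies 226 bp from that of Tap1, a peptide transporter subunit transcribed the other way, and the peaks of both genes are the same intervals. The Mta2 and Mbd3 summits of this shared promoter lay 428 and 431 bp from the Psmb9 start, inside Tap1, while the Zbtb7a summit lay 86 bp from it. Psmb10, which replaces Psmb7, was the strongest of these genes, at 26.7, 26.1 and 34.5. Its summits lay 1256, 1254 and 1218 bp past the start, inside the gene, so it counted as unoccupied in the start window. The intervals themselves, at chromosome 8 from 105936694 to 105938546 for Mta2 in mm10, reached across the start at 105938392.

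Among the activators, Psme1 had folds of 17.5 for Mta2, 17.5 for Mbd3 and 34.6 for Zbtb7a. Psme2, its partner in PA28, had 27.3, 17.4 and 41.4, the last being the highest Zbtb7a fold of the family. The Zbtb7a and Mta2 summits at Psme2 lay 23 bp past and 1 bp before its start, while the Mbd3 summit lay 625 bp upstream, the strongest summit nearest to the 1 kb limit from inside, as those of Psmb10 were from outside, and close to the start of Rnf31. Psme3, which encodes the nuclear activator PA28 gamma, had 9.48, 12.7 and 14.5. Psme4, which encodes PA200, had 12.0, 12.2 and 14.5, and its strongest Zbtb7a peak lay 21088 bp inside the gene, while its Zbtb7a peak at the start had a fold of 14.1.

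All 3 immunoproteasome genes and all 4 occupied activators stood higher in the Zbtb7a list than in either NuRD list. Psme1 was at percentile 87.6 for Zbtb7a and 52.5 for Mta2, and Psmb8 at 59.7 for Zbtb7a and 28.0 for Mta2. Psme3 stood at 44.6 for Zbtb7a and 21.1 for Mta2. Smaller gaps, Zbtb7a minus Mta2, were 14.2 points at Psmb9, 13.5 at Psme4, 11.3 at Psme2 and 7.27 at Psmb10. Such gaps were not confined to these roles. Psme3ip1, which encodes no subunit, had 26.9 points over Mta2 and 24.7 over Mbd3. The assembly factor Psmg2 had 14.9 points against Mta2 and -9.74 against Mbd3. Over all occupied proteasome genes, 21 of 48 (43.8%) stood higher in the Zbtb7a list than in the Mta2 list, beside 45.7% of other genes, so the family as a whole did not lean this way. Against the Mbd3 list, 15 of the 48 stood higher in the Zbtb7a list. Among other genes, 16160 had peaks of both factors, and 7620 stood higher in the Zbtb7a list. The median difference, Zbtb7a minus Mbd3, was -8.96 points over the 48 and -0.717 over other genes. Psme1 and Psme2 lie near each other on chromosome 14, and Psmb8 and Psmb9 on chromosome 17, so these genes are not independent observations. With peaks of the start window alone, the gap was 30.8 points at Psme1, 33.6 at Psmb8 and 25.5 at Psme3. It was 14.9 at Psmb9, 12.2 at Psme4 and 6.84 at Psme2, and Psmb10 had no value in that window. The merged lists of whole cortex do not resolve the cell types of these peaks.

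**Figure D3:**
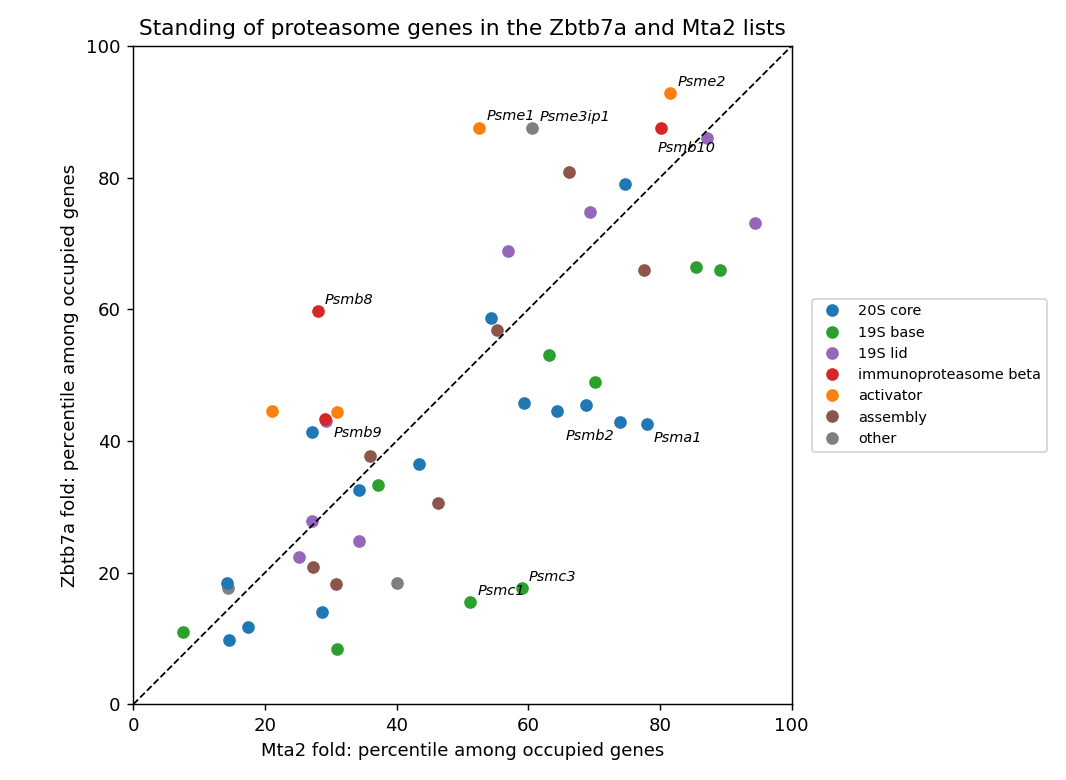
Percentile of each proteasome gene's highest fold among occupied genes, in the Zbtb7a list (vertical) and the Mta2 list (horizontal), coloured by role, with equal standing on the dashed line. The 3 immunoproteasome genes and 4 occupied activators all lie above the line, and 8 of 9 base genes and the 7 beta ring genes lie below it.

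The inhibitor and the assembly factors were all occupied by all 3 factors. Psmf1, which encodes the inhibitor PI31, had folds of 14.3 for Mta2, 16.8 for Mbd3 and 7.41 for Zbtb7a. Among the assembly factors, Psmd9, a chaperone of the base, had 25.5, 28.2 and 21.6. Psmg2, a chaperone of the alpha ring, had 21.3, 31.8 and 29.5. Psmd10, which encodes gankyrin, had the lowest Mta2 fold of these, at 11.2, with 12.5 and 8.12. Every one of the 7 assembly factors stood higher in the Mbd3 list than in the Mta2 list, as did 7 of 8 lid genes. Over all occupied proteasome genes the count was 34 of 48 (70.8%), beside 47.0% of other genes. Gaps, Mbd3 minus Mta2, had a median of 9.87 points in assembly factors and 2.86 in lid genes. Some were close to none, with 0.172 points at Psmg4, 0.743 at Psmd5 and 0.844 at Psmd14. The widest gaps of the family were at Psmd1, at percentile 95.4 for Mbd3 and 63.2 for Mta2, and at Psmd6, at 65.3 for Mbd3 and 34.3 for Mta2. Of the genes that encode no subunit, Psmc3ip was low at 7.22, 6.02 and 7.17, and Psme3ip1 had 19.6, 18.8 and a Zbtb7a fold of 34.4.

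Summits lay both at start sites and elsewhere in the genes. Of all summits assigned to the 43 genes with a start entry, 42 of 77 in the Mta2 list lay within 1 kb of a start, as did 42 of 77 in the Mbd3 list and 42 of 70 in the Zbtb7a list. In that window, the strongest Mta2 summit lay within 200 bp of the start in 38 of 40 proteasome genes (95.0%) and in 77.4% of other occupied genes. For Mbd3 this held in 37 of 40 (92.5%) and 76.8%, and for Zbtb7a in 35 of 40 (87.5%) and 75.7%. The median position was 51.5 bp upstream for Mta2 and Mbd3 and 35.0 bp upstream for Zbtb7a, against 37.0, 31.0 and 29.0 bp upstream in other genes. These strongest summits were upstream of the start in 32 (80.0%), 31 (77.5%) and 26 (65.0%) of the 40 genes. In other occupied genes the shares were 66.4%, 64.2% and 61.9%, so the Zbtb7a share was close to theirs. Counting only summits inside the gene span left 29 genes in the Mta2 list, 30 in the Mbd3 list and 32 in the Zbtb7a list. The share of all protein-coding genes under this narrower rule was not computed, so these counts have no background.

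**Figure D4:**
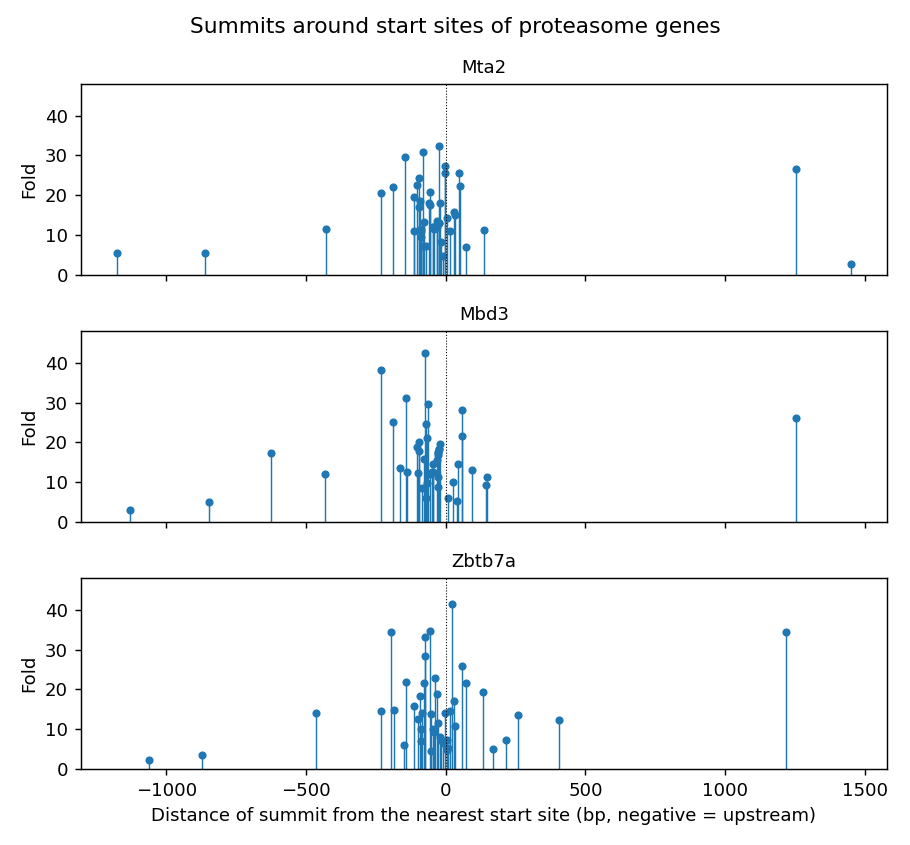
Distance of each summit from the nearest start site of its proteasome gene (bp, negative is upstream) and its fold, in the Mta2, Mbd3 and Zbtb7a lists, for summits within 1500 bp of a start. Of the strongest summits within 1 kb, 38, 37 and 35 of 40 lie within 200 bp of the start. The tall line right of 1000 bp in each panel is Psmb10.

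At single genes the factors shared their place. In 46 of the 48 genes with all 3 factors, the strongest peaks of the 3 lists overlapped, the exceptions being Psme4 and Psmb7. Summits of all 3 factors lay within 200 bp of each other in 40 genes. The median distance between summits was 13.0 bp for Mta2 and Mbd3, 25.5 bp for Mta2 and Zbtb7a and 26.5 bp for Mbd3 and Zbtb7a. Overlaps and distances were taken in proteasome genes only, so they do not show whether other genes differ. Across the 48 genes, Spearman's rho of the highest fold was 0.888 between Mta2 and Mbd3, 0.723 between Mta2 and Zbtb7a and 0.700 between Mbd3 and Zbtb7a. Across other genes these were 0.936, 0.850 and 0.856. These are descriptions over genes, whose values share open chromatin, base composition and possibly the same mice across lists, and they were not tested.

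Several proteasome promoters are shared with a neighbour. A start on the opposite strand lay within 1 kb upstream in 8 of 43 proteasome genes (18.6%) and in 8.56% of the 17231 other genes. The pairs were Psma2 with Mrpl32 at 205 bp, Psma7 with Ss18l1 at 19 bp, Psmb9 with Tap1 at 226 bp, Psmc5 with Ftsj3 at 101 bp, Psmd10 with Atg4a at 196 bp, Psmd13 with Sirt3 at 85 bp, Psme2 with Rnf31 at 641 bp and Psme3ip1 with Rspry1 at 215 bp. By another rule, any end of another protein-coding gene within 1 kb of the strongest summit, 13 genes had a neighbour in each list. These were 7 of the 8 above, all but Psmd10. Summits of Psmd10 lay inside Atg4a, away from the ends of that gene's span, although an Atg4a start lies 196 bp from the Psmd10 start. The others were Psma4 with AY074887, Psmb3 with Pcgf2, Psmc2 with Dnajc2, Psmd8 with Catsperg1, Psmg2 with Cep76 and Psmc3ip with Retreg3. In the Mta2 and Mbd3 lists Psma4 also had Hykk, and Psme3ip1 had LOC115486880 in every list. At these genes, and at Psmd10, a peak cannot be given to 1 of the genes alone.

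The letters of 6 known elements were counted in the 300 bases from 250 before to 50 after the start, on both strands, and matches of different elements may share bases. The ETS letters CCGGAAG stood in 16 of 43 proteasome promoters (37.2%) and in 13.1% of all 17274 promoters. Within the CpG range the shares were 38.1% of 21 proteasome promoters and 20.3% of 3917 others. By role, the match was held by 5 of 8 base and 4 of 6 lid genes, by 1 of 11 core genes (Psma6) and by 0 of 3 immunoproteasome genes. All 16 proteasome genes with the letters were occupied at the start, as were 24 of 27 without them, and among other genes the Mta2 shares were 93.5% with and 63.8% without. Median Mbd3 folds were 17.7 in proteasome genes with the letters and 13.2 in those without. For Mta2 they were 15.4 with and 14.7 without, and for Zbtb7a 14.3 with and 13.8 without.

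The antioxidant letters TGANNNNGC stood in 25 of 43 proteasome promoters (58.1%) and in 45.5% of all promoters. Within the CpG range the shares were 57.1% of 21 proteasome promoters and 47.9% of 3917 others. They were in 8 of 11 core promoters, among them the 4 beta ring promoters with an entry, and in 3 of 8 base promoters. Median folds at the start were 18.0 in proteasome genes with these letters and 13.2 in those without for Mta2, 16.0 and 15.2 for Mbd3, and 15.9 and 9.65 for Zbtb7a. In other genes they were 15.4 with and 15.1 without for Mta2, 14.2 and 13.9 for Mbd3, and 15.1 and 14.8 for Zbtb7a. The interferon letters GAAANNGAA stood in 7 proteasome promoters (16.3%) and in 9.39% of all promoters. Psme1 was among these 7, and none of Psmb8, Psmb9 and Psmb10 was. The GC box GGGCGG stood in 55.8% of proteasome promoters and 49.8% of all, and CCAAT in 37.2% and 42.7%. Within the CpG range the GC box was no more frequent in proteasome promoters, at 66.7% against 69.3% of others. There CCAAT stood in 38.1% and 45.3%, and the interferon letters in 14.3% and 8.78%. CCTTCCCC, part of the gamma-globin element that ZBTB7A binds in human cells, stood in 0 of 43 proteasome promoters and in 5.35% of all promoters. The last count says only that these letters are absent from this window.

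Genes that work with the proteasome were also occupied. Of 24 listed partners and regulators, 23 matched the annotation, Paaf1 being the exception, and all 23 carried all 3 factors, beside 74.7% of all protein-coding genes. Their median folds were 22.2 for Mta2, 22.3 for Mbd3 and 20.8 for Zbtb7a, at median percentiles of 69.0, 73.9 and 63.8. Nfe2l2, which encodes the antioxidant factor Nrf2, had the highest Mta2 and Zbtb7a folds of this list, 45.6 and 57.3, with 44.2 for Mbd3. Uchl5, a deubiquitinase of the 19S cap, had the highest Mbd3 fold at 46.5. Nfe2l1, the factor known to raise proteasome gene transcription when the protease is inhibited, was lower at 13.5, 12.7 and 16.9. All 13 listed genes of class I antigen processing carried all 3 factors, against the same 74.7%, with median folds of 17.0, 16.6 and 17.2. Irf1, an interferon-induced transcription factor, had the highest Mta2 and Mbd3 folds of that list, 35.3 and 27.2, and Pdia3, a chaperone of peptide loading, the highest Zbtb7a fold, 67.2.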

How the data were processed

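Per the labels, Mta2, Mbd3, Zbtb7a and Input libraries of mouse kidney cortex were made from 2 replicates each, and the deposited data used here are 3 peak lists, 1 per factor. Bowtie2, deepTools, MACS2, bedtools and mm10 are named in the submitters' processing notes, without versions or settings, and how mice and Input were combined is not stated there. Each deposited peak has a fold, which is the authors' ratio of signal over background at the summit, a −log10 q value given by the authors' peak caller, and the deposited offset of its summit. Folds describe and rank peaks within a list only. Read depth per sample is not known from these lists, so no interval could be given for a fold.

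Gene spans came from RefSeq GRCm38.p6, whose coordinates are those of mm10, and start sites and promoter bases from its promoter table. A gene was called occupied where a summit lay in its span or within 1 kb of its ends, or within 1 kb of a start site, and its strongest peak was the one of highest fold. Percentiles were taken among all occupied genes of a list. Peaks on the autosomes and X were used, with Python 3.11.15, pandas 2.3.3, numpy 2.4.6 and scipy 1.17.1. The assignment of summits was checked on simulated peaks. The members, roles, lists and motifs were chosen with earlier results of these data known. Values are given for all members of roles with at most 4 genes, otherwise for the 2 highest and the lowest Mta2 folds, and for the 5 highest and 5 lowest members of each list. Other members were named where a role or gap called for it. Alternatives were other windows, stricter peaks, interval overlap, other role assignments and backgrounds of like length or CpG count. The comparison of proteasome and other genes within ranges of CpG count was chosen after seeing the data.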

Additional observations from a re-analysis of the deposited data

How the results depend on the processing

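Of 79 alternative values of the occupancy counts, medians and backgrounds, 68 kept within the set margins and 11 did not. For counts and medians the margin was wide, a change of at most 1.5 times. With summits inside the gene span only, 29 genes were occupied for Mta2 and 30 for Mbd3. The Zbtb7a count fell from 48 to 32, which still counted as within the margin. So did the median folds under that rule, 11.3 for Mta2, 10.7 for Mbd3 and 10.4 for Zbtb7a. No share of all genes was computed under that rule. With Psme1 and Psme2 counted as immunoproteasome genes, that role's median fold was 17.5 for Mta2 and 34.5 for Zbtb7a, and the activators' Zbtb7a median was 14.5. Shares of all genes occupied were 81.4% for Mta2, 80.0% for Mbd3 and 79.6% for Zbtb7a within the length range of the proteasome genes. Within their CpG range, they were 97.2%, 96.0% and 95.9%. At the start site, the shares over all genes of the CpG range, members included and chosen after seeing the data, were 92.7%, 91.3% and 91.7%. Of 359 alternative folds of single members, 328 kept within the margins and 31 did not. No paired analysis was possible because the merged lists hold no value per mouse, and for the same reason no replicate could be left out. A −log10 q of at least 10 removed the Mbd3 peak at Psma8 and left every other occupied member in all 3 lists.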
